A study of Mus musculus with 24 samples.

Results

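Pericytes and vascular smooth muscle cells are the mural cells that wrap the endothelial tube of brain vessels, pericytes along capillaries and smooth muscle around arterioles. Endothelial platelet-derived growth factor holds pericytes to the vessel through the receptor PDGFRB, and smooth muscle shortens by an actin and myosin apparatus whose genes are driven by serum response factor and its myocardin family of cofactors. The 9 genes described here, of 33000 genes in the count table, were taken by their symbols as genes that mark these cells: Pdgfrb, Rgs5, Kcnj8, Abcc9, Vtn and Anpep for pericytes, and Acta2, Tagln and Myl9 for contractile mural cells. Each symbol occurred once in the table.

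The samples were frontal cortex of 3 wild-type (WT) and 3 homozygous GFAP-IL6 mice, all C57BL/6 and 3 months old. In GFAP-IL6 mice a transgene places the cytokine interleukin 6 under the GFAP promoter, which is active in astrocytes. Which cells of these mice made or received the cytokine was not measured. RNA was read by 3'Pool-seq, in which oligo-dT primers capture the 3' end of each transcript. Each mouse gave 4 libraries, from 2 ng and 1 ng of cDNA put into the tagmentation reaction (the enzymatic cutting of cDNA) in set A and again in set B. The 4 libraries of a mouse are repeats of 1 RNA sample, so the mouse was the replicate, and counts were summed per mouse for the main comparison. Library totals ran from 1524165 to 12256374 counts, and mouse totals from 7852743 in WT 3 to 37582644 in GFAP-IL6 3. Values are given as CPM, the count scaled to 1000000 counts of the effective library size. Il6 was between 0 and 0.260 CPM in the WT mice and between 1.58 and 4.23 CPM in the GFAP-IL6 mice.

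Of the 9 genes, 8 had enough counts to be tested between genotypes, and all but Anpep lay between 0.831 and 96.2 CPM in every mouse. In mean WT level, Vtn stood at 78.2 CPM, Rgs5 at 49.7, Myl9 at 26.9, Acta2 at 18.1, Pdgfrb at 9.57, Tagln at 6.54, Kcnj8 at 6.35, Abcc9 at 0.877 and Anpep at 0.205 CPM. Counts divided by gene length put Vtn highest, at 44.8 CPM per kilobase of gene length in WT, before Myl9 at 23.9, Rgs5 at 10.9, Acta2 at 10.2 and Tagln at 4.13 CPM per kilobase. Kcnj8 followed at 2.90, Pdgfrb at 1.75, Abcc9 at 0.116 and Anpep at 0.0541 CPM per kilobase. Reads of this method come from the 3' end and do not grow with length, so this order is only a rough one, and without the division Rgs5 came before Myl9, and Pdgfrb before Tagln and Kcnj8. Defining genes of both cell types were thus measured, with the pericyte genes Abcc9 and Anpep near the limit of detection. In bulk tissue, fewer mural cells and less RNA per mural cell cannot be told apart.

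The upstream sequences of Rgs5 and of 2 contractile genes are shown. Any part of these sequences in the differences among mice was not tested. RefSeq promoter windows of GRCm38.p6, running from 250 bases before to 50 bases after a RefSeq start, were found for 7 of the 9 genes. Each had 1 window, and other starts were not searched. The Anpep window (chr7:79848161-79848460) lay inside the GENCODE gene, whose 5' end is at base 79861059. Capitals mark the CArG box, the site read by serum response factor, either strict or with 1 C or G in its core of A and T.
Acta2, chr19:34255324-34255623, minus strand: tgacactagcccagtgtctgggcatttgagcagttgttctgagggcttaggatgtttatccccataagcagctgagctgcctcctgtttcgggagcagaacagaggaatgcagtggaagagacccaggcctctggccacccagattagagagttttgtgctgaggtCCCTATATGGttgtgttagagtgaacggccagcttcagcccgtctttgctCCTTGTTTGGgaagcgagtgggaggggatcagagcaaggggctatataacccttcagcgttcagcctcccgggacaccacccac
Myl9, chr2:156775214-156775513, plus strand: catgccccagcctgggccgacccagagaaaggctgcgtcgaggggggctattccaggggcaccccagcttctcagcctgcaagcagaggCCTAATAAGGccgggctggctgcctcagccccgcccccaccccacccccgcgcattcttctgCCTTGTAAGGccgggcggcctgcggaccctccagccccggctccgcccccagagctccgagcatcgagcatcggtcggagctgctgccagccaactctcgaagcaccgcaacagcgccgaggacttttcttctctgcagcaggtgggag
Rgs5, chr1:169655251-169655550, plus strand: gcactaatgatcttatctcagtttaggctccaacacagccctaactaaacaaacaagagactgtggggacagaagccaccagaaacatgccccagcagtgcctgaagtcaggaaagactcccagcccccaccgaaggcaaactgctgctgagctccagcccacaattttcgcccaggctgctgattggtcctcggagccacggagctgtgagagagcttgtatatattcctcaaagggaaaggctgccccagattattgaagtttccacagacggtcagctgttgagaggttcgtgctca

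The Myl9 window held 1 strict CArG box, from base -161 to base -152 relative to the start, and 1 with a substituted core from base -99 to base -90. The Acta2 window held 2 boxes with a substituted core, from base -84 to base -75 and from base -34 to base -25. The Rgs5, Kcnj8, Abcc9, Anpep and Vtn windows had no match to either form. Of 32851 windows of this length, 1.63% held the strict form and 8.5% the form with 1 substitution, both strands being searched. The motif TTCNNNGAA, which factors of the STAT family downstream of interleukin 6 can bind, was matched on either strand in 8.3% of all windows and, among the 7, only in that of Vtn, from base 35 to base 43. These are matches of letters, which do not show that a factor was bound.

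Rgs5 rose in GFAP-IL6 mice, and it was the only one of the 8 tested genes that passed the test, although the estimates of all 8 were positive. Rgs5 encodes a regulator of G protein signalling that is abundant in pericytes and dampens signals from contractile receptors. Its level was 58.0, 46.9 and 44.2 CPM in the WT mice and 74.0, 65.3 and 75.4 CPM in the GFAP-IL6 mice. The lowest GFAP-IL6 mouse was thus above the highest WT mouse. The log2 fold change was 0.52 (SE 0.109, 95% interval 0.28 to 0.75), a fold change of 1.43, and edgeR's quasi-likelihood test over 14621 genes gave an adjusted p of 0.0206. At this threshold 1.8% of all genes tested were called, so 1 of 8 is not a share that can be set apart from the background. As the change was under 1 on the log2 scale, Rgs5 did not count as a differentially expressed gene (DEG), a call made for 1.23% of the genes tested and for none of the 8. The call was lost, at adjusted p values of 0.133, 0.0527, 0.0575 and 0.144, when WT 2, WT 3, GFAP-IL6 1 or GFAP-IL6 3 was left out, while the log2 fold change stayed between 0.45 and 0.65.

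**Figure D1:**
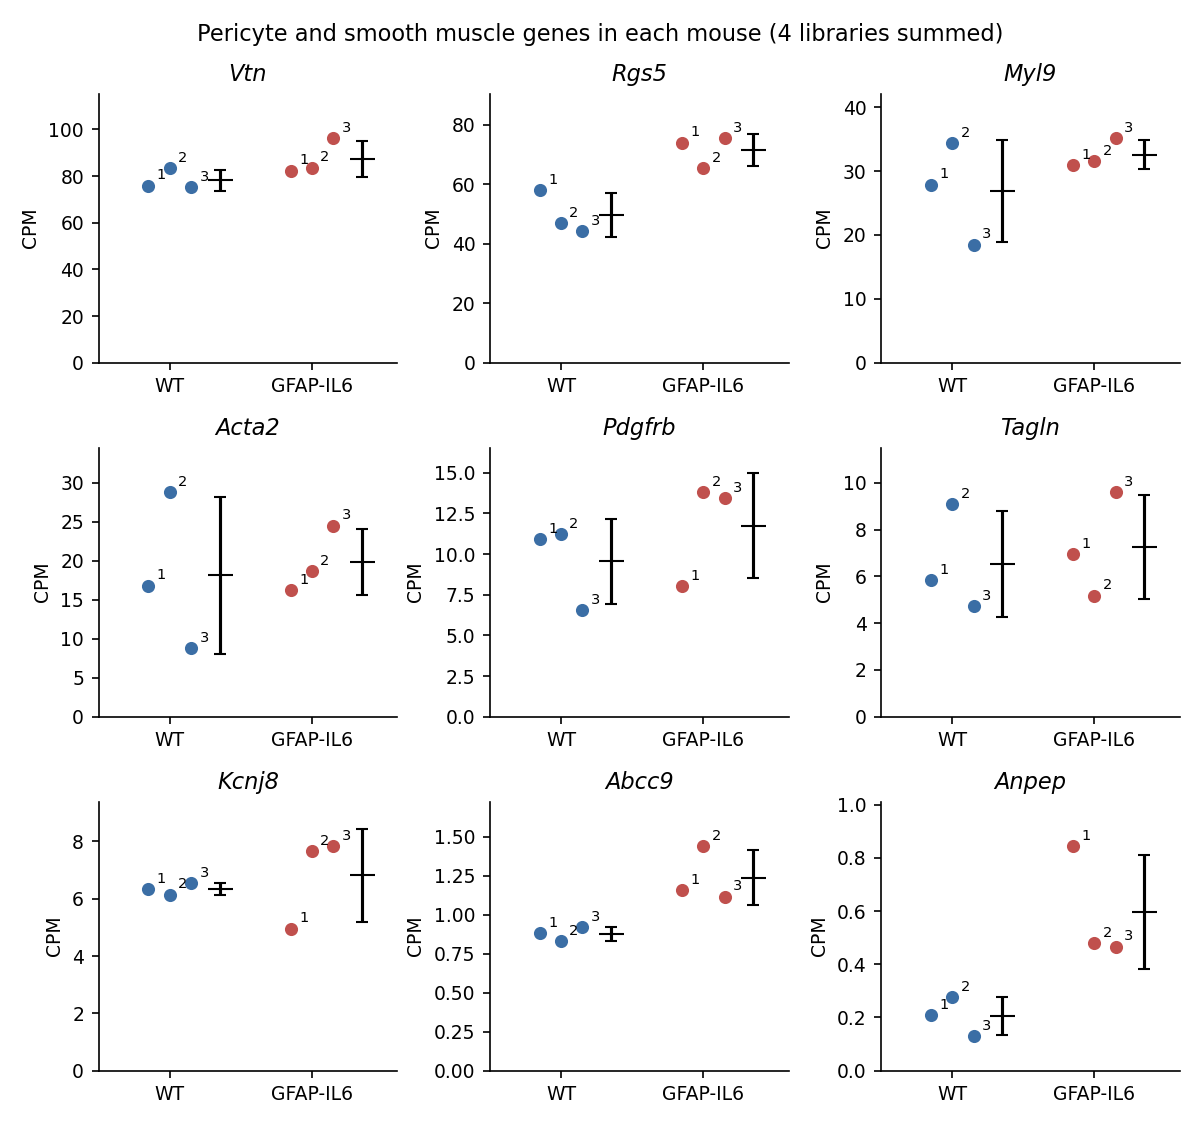
Level of each of the 9 genes in CPM (vertical axes, each starting at 0) in the 3 WT mice (blue) and 3 GFAP-IL6 mice (red), numbered as labelled; the bar and whiskers give the mean and SD of 3 mice. Rgs5 separates the genotypes, at 44.2 to 58.0 CPM in WT against 65.3 to 75.4 CPM in GFAP-IL6 mice, whereas Acta2 spans 8.79 to 28.7 CPM within WT alone.

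Pdgfrb, the receptor by which pericytes answer endothelial platelet-derived growth factor, was at 10.9, 11.2 and 6.56 CPM in WT mice and at 8.01, 13.8 and 13.5 CPM in GFAP-IL6 mice. The genotypes overlapped, since GFAP-IL6 1 was lower than WT 1 and WT 2. Its log2 fold change of 0.29 (95% interval -0.16 to 0.74) had an adjusted p of 0.788, and it was 0.13 without WT 3 and 0.46 without GFAP-IL6 1. Vtn encodes vitronectin, an adhesive protein of plasma and of the vascular matrix that binds integrins containing the alpha v subunit. It was at 75.9, 83.3 and 75.3 CPM in WT mice and at 82.3, 83.6 and 96.2 CPM in GFAP-IL6 mice. WT 2 fell between the GFAP-IL6 mice, so these groups overlapped too. The log2 fold change of Vtn was 0.16 (95% interval -0.03 to 0.36, adjusted p = 0.692), which leaves a fold change above 1.28 outside the interval.

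Kcnj8 and Abcc9 lie next to each other on chromosome 6 and encode the pore (Kir6.1) and the sulfonylurea receptor (SUR2) of the ATP-sensitive potassium channel of mural cells, which relaxes the vessel when it opens. Kcnj8 was even among WT mice, at 6.34, 6.15 and 6.56 CPM, and spread on both sides of them among GFAP-IL6 mice, at 4.95, 7.67 and 7.83 CPM. Its log2 fold change was 0.15 (95% interval -0.26 to 0.56, adjusted p = 0.911), and it was 0.034 without GFAP-IL6 3 and 0.29 without GFAP-IL6 1. Abcc9 was at 0.884, 0.831 and 0.918 CPM in WT mice and at 1.16, 1.44 and 1.12 CPM in GFAP-IL6 mice, without overlap. These levels stood on 7 to 43 counts per mouse, and the log2 fold change of 0.50 had an interval from -0.32 to 1.32 (adjusted p = 0.814). A similar fold change to that of Rgs5 was therefore not detectable as a difference for Abcc9 at this depth.

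Anpep encodes aminopeptidase N (CD13), a surface peptidase of pericytes that myeloid cells and fibroblasts also carry. It had 4, 5 and 1 counts in the WT mice and 8, 10 and 18 counts in the GFAP-IL6 mice, that is 0.208, 0.277 and 0.131 against 0.843, 0.479 and 0.467 CPM. The groups did not overlap, but Anpep fell below the filter on low counts, and in a fit of all genes with a count its log2 fold change had a 95% interval from -0.22 to 2.91 and an adjusted p of 0.716. That fit had 82500 degrees of freedom against 14.9 in the main fit. Its interval thus rests on a spread shared by all genes, not on that of Anpep between mice. A count of 3 corresponds to between 0.0778 and 0.393 CPM, depending on the mouse, and the value of WT 3 was below that floor. Counting error alone is covered by such floors, because reads of a PCR library without molecular identifiers are not independent molecules.

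Groups without overlap were thus seen in 3 of the 9 genes, Rgs5, Abcc9 and Anpep, each with the GFAP-IL6 mice higher and each at p = 0.1 in an exact two-sided permutation test, the smallest that 3 against 3 mice can give. Among all 14621 genes tested, 8.43% had every GFAP-IL6 mouse above every WT mouse and 5.93% had every one below. Anpep was not among the genes tested, so the count to set beside these shares is 2 of 8.

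The contractile genes did not separate the genotypes. Acta2 and Myl9 differed more within WT than within GFAP-IL6 mice, while Tagln had a similar SD in both (2.27 and 2.22 CPM). Acta2, smooth muscle alpha actin, was at 16.8, 28.7 and 8.79 CPM in WT mice and at 16.2, 18.7 and 24.5 CPM in GFAP-IL6 mice. The highest and the lowest mouse were both WT, a 3.27-fold range, and the log2 fold change was 0.10 (95% interval -0.47 to 0.67, adjusted p = 0.968). Myl9, a regulatory light chain of smooth muscle myosin, was at 27.9, 34.4 and 18.5 CPM in WT mice and at 30.9, 31.6 and 35.1 CPM in GFAP-IL6 mice. Again WT 3 was the lowest, and the log2 fold change was 0.25 (95% interval -0.09 to 0.59, adjusted p = 0.741). It was 0.075 without WT 3 and 0.46 without WT 2. Tagln, the actin-binding protein SM22 alpha, was at 5.82, 9.08 and 4.72 CPM in WT mice and at 6.96, 5.18 and 9.59 CPM in GFAP-IL6 mice, with a log2 fold change of 0.13 (95% interval -0.41 to 0.67, adjusted p = 0.946). The sign of the Acta2 and Tagln changes was not stable: without WT 3 they were -0.17 and -0.01, and without GFAP-IL6 3 they were -0.10 and -0.17.

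The last exon of Tagln (chr9:45929619-45930515, minus strand, GENCODE vM21 on GRCm38) overlaps the genes Pcsk7 and Gm48529 on the other strand. As the strand setting of the counting was not given in the sources used here, reads of Tagln and of these genes cannot be told apart with certainty. Pcsk7 was counted at 9.70 to 14.4 CPM in WT and 14.1 to 15.3 CPM in GFAP-IL6 mice. None of the other 8 genes had another annotated gene over its last exon, and for all 9 the last 300 nucleotides of the transcript matched no other gene over 100 nucleotides at 97% identity.

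The 8 tested genes had positive log2 fold changes, from 0.10 to 0.52, with a median of 0.21, while 48.1% of all genes tested were positive, with a median of -0.01. This is a description: the genes share cells and are not independent, and without WT 2 the median was 0.46. Set against the geometric mean of the other 7 tested genes in the same mouse, Rgs5 stood at 2.49, 1.93 and 2.45 on the log2 scale in WT mice and at 2.83, 2.43 and 2.45 in GFAP-IL6 mice. The groups overlapped, with a difference of 0.28 (exact permutation test, two-sided, p = 0.5), so a larger change of Rgs5 than of the other 7 genes together was not shown. Against Vtn alone the groups did not overlap: log2 Rgs5 over Vtn was -0.39, -0.83 and -0.77 in WT and -0.15, -0.36 and -0.35 in GFAP-IL6 mice. That difference was 0.37, and p was 0.1 in the exact two-sided permutation test, which cannot go lower with 3 against 3 mice. Against Pdgfrb alone the groups overlapped, with a difference of 0.24 (exact permutation test, two-sided, p = 0.6). Rgs5 alone already separated the genotypes, so its ratio to Vtn is not an independent result. Of the other mural genes, only Vtn and Pdgfrb were set singly against Rgs5.

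**Figure D2:**
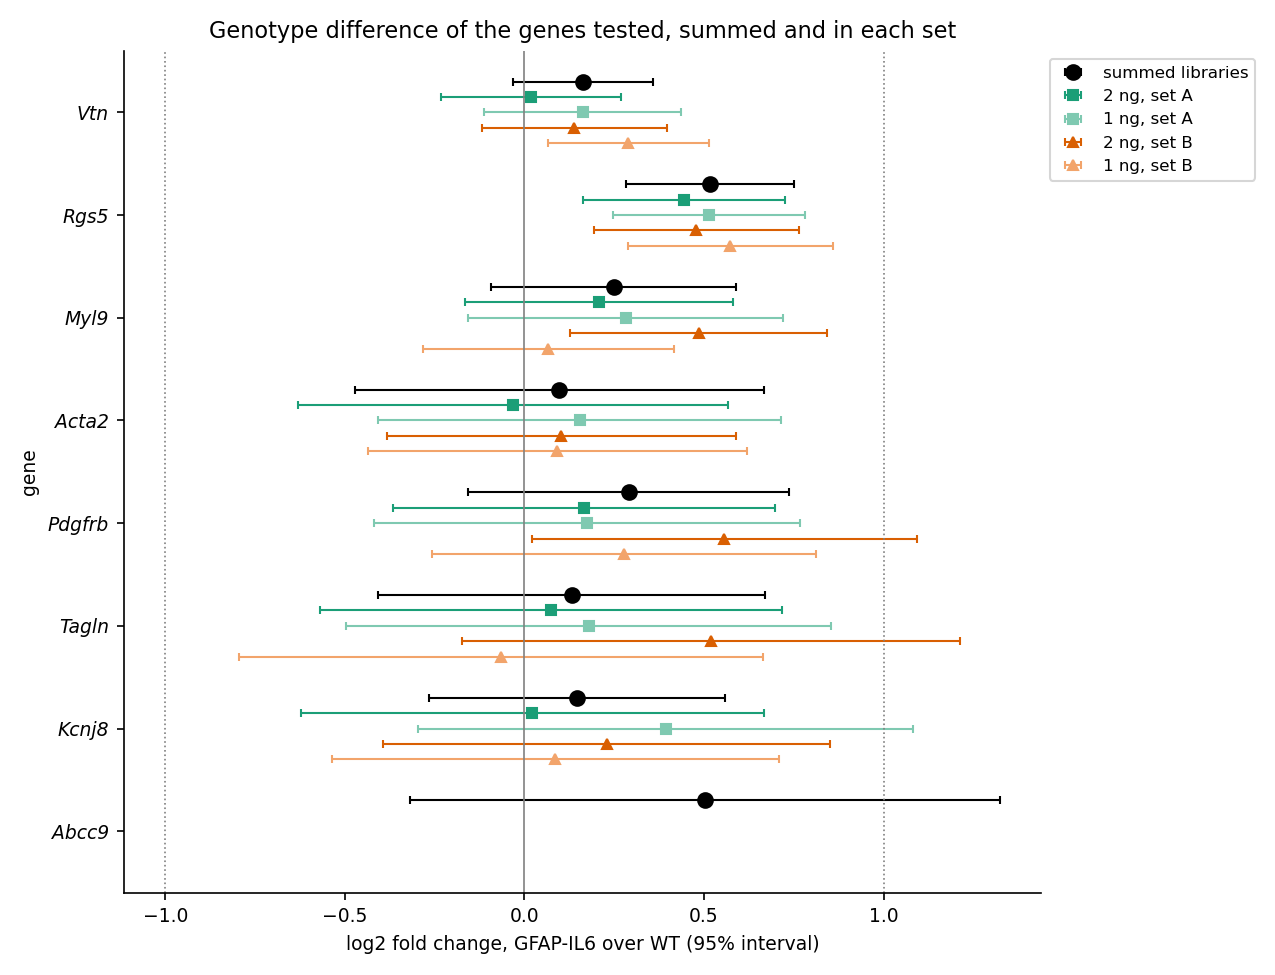
Log2 fold change of GFAP-IL6 over WT mice (horizontal axis) with its 95% interval for the 8 tested genes, from the summed libraries (black) and from each combination of cDNA amount and set; dotted lines mark 1 and -1, the threshold of a DEG. The intervals of Rgs5 lie above 0 in all 5 fits, at 0.44 to 0.57 in the sets, and Abcc9 was tested only in the summed libraries.

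Each combination of amount and set gave 1 library per mouse, from the same 6 mice, in which 7 of the 9 genes could be tested. With 2 ng of cDNA in set A, none of the 7 was called by edgeR or DESeq2 (1.03% of all genes tested were called by edgeR), and 1 had an unadjusted p under 0.05, as had 7.59% of all genes. With 1 ng in set A, none was called by either tool (1.1% of all genes), and 1 passed unadjusted (7.34% of all genes). In set B with 2 ng, none was called by either tool (1.08%), and 3 passed unadjusted, Pdgfrb, Rgs5 and Myl9 (6.77% of all genes). In set B with 1 ng, Rgs5 alone was called by edgeR (adjusted p = 0.0458, background 1.08%) and by DESeq2, and Vtn also passed unadjusted (6.98% of all genes).

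The estimates for Rgs5 were close to one another in the 4 sets. In 2 ng set A its level was 72.3, 53.6 and 45.9 CPM in WT and 76.1, 78.1 and 84.0 CPM in GFAP-IL6 mice, and in 1 ng set A 53.2, 47.8 and 41.8 against 67.9, 66.9 and 70.5 CPM. In 2 ng set B it was 55.8, 44.0 and 50.8 against 70.8, 59.3 and 79.1 CPM, and in 1 ng set B 54.2, 44.1 and 41.4 against 79.3, 60.3 and 71.4 CPM. The genotypes did not overlap in any set, although the highest WT library, WT 1 in 2 ng set A, was above several GFAP-IL6 libraries of other sets. The log2 fold changes were 0.44, 0.51, 0.48 and 0.57 in this order, and the adjusted p values 0.186, 0.0505, 0.12 and 0.0458. No other of the 9 genes had every GFAP-IL6 library above every WT library in more than 1 set. How many of all genes separate in every set was not counted. The sets repeat the same 6 mice, so they are not independent.

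**Figure D3:**
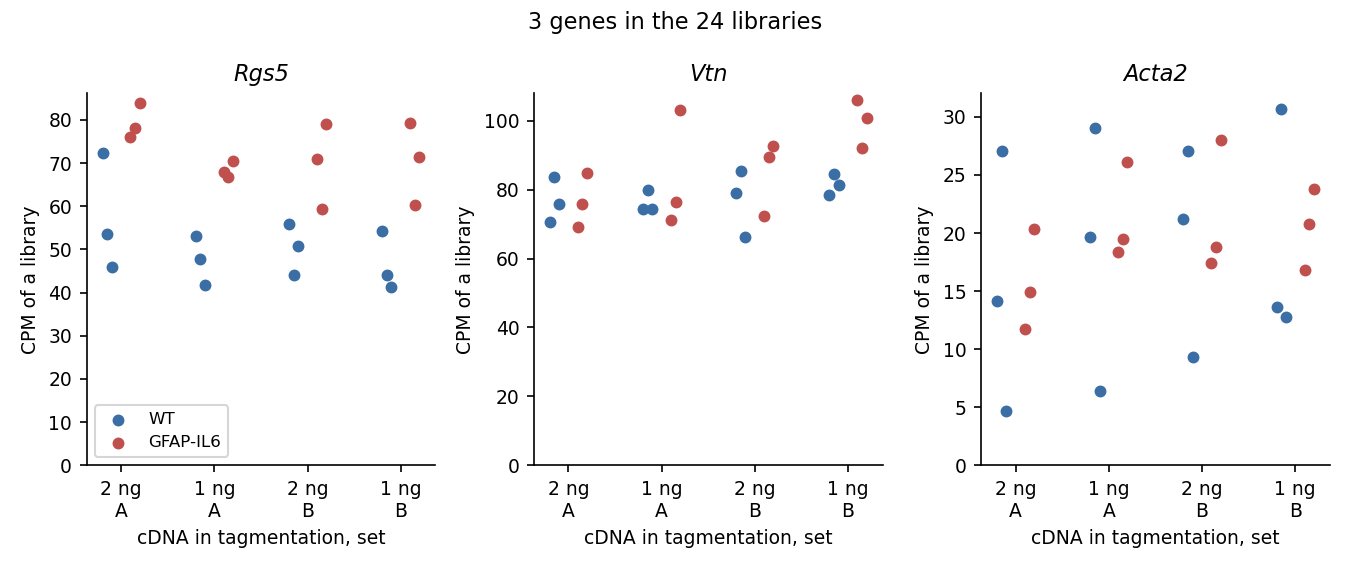
CPM (vertical axes, starting at 0) of Rgs5, Vtn and Acta2 in each of the 24 libraries, by cDNA amount and set (horizontal axis) and genotype (WT blue, GFAP-IL6 red), 3 mice per group. The red points of Rgs5 lie above the blue ones in each set, with 41.4 to 72.3 CPM over all WT libraries and 59.3 to 84.0 CPM over all GFAP-IL6 libraries, and those of Vtn and Acta2 intermingle in most sets.

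The other genes moved more between sets. The log2 fold change of Pdgfrb was 0.17, 0.17, 0.56 and 0.28, that of Myl9 0.21, 0.28, 0.48 and 0.07, and that of Vtn 0.02, 0.16, 0.14 and 0.29 in the same order of sets. Tagln ranged from -0.07 to 0.52, Kcnj8 from 0.02 to 0.39 and Acta2 from -0.03 to 0.15. A difference of the genotype effect between 2 ng and 1 ng was called for none of the 7 genes and none of all genes (0% called by edgeR; 528 of 13389 at an unadjusted p under 0.05; 0 by DESeq2). Between sets A and B the same test called none (0% called by edgeR; 583 of 13581 unadjusted; 0 by DESeq2), and none of the 7 genes had an unadjusted p under 0.05 in either test.

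The 2 amounts of cDNA gave mural gene levels within about the spread between mice. Between 2 ng and 1 ng none of the 7 was called by edgeR or DESeq2, while edgeR called 12.8% of all genes. None passed unadjusted in either tool, against 25.3% of all genes in edgeR. Log2 differences ran from -0.14 to 0.21. Both amounts came from the same 6 mice, and with the mouse as a block 33.3% of all genes were called, among them 2 of the 7. Rgs5 was then higher with 2 ng by 0.13 on the log2 scale (adjusted p = 0.0138), in 5 of 6 mice, and Vtn fell by 0.14 (adjusted p = 0.00269), lower with 2 ng in all but 1 of the 6 mice. Between sets B and A none of the 7 was called without the block by edgeR or DESeq2, while edgeR called 7.47% of all genes. None of the 7 passed unadjusted, against 20.6% of all genes in edgeR. With the block 23.3% of all genes were called, and of the 7, Myl9 was higher in set B by 0.25 (adjusted p = 0.0124) and Vtn by 0.14 (adjusted p = 0.0208), each in 6 of 6 mice. In the paper's protocol, samples are pooled after reverse transcription, and amplification and tagmentation are done on the pools. Libraries of 1 amount and set may therefore share reactions, so the mice need not replicate an amount or set. The p-values of the amount and set fits do not measure the spread between such reactions.

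Within a mouse, the 4 libraries scattered somewhat beyond counting. The ratio of observed to counting variance was lowest for Tagln, at 0.886, and highest for Vtn, at 3.92, with 3.36 for Rgs5, 3.24 for Myl9 and 2.38 for Acta2. Its median was 2.5 over 12438 genes with a mean of at least 10 counts per library, with quartiles of 1.78 and 4.1. Of the 9 genes, 5 lay between these quartiles. Abcc9, which is among the 5, and Anpep had mean counts below that cut. Tagln, Kcnj8 (1.18), Pdgfrb (1.53) and Anpep (1.54) lay below the lower quartile, Tagln also below counting variance. The coefficient of variation of Acta2 was 55.5% between the WT mice and 19.5% on average within a mouse, and that of Rgs5 was 14.7% and 10.5%. Abcc9 had 0 to 19 counts per library and Anpep 0 to 7, and they were at or under 3 counts in 12 and 19 of the 24 libraries.

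WT 3 was the lowest of the 6 mice in 7 of the 9 genes, or 6 of the 8 tested, against 24.1% of 14616 genes tested. Only Kcnj8, lowest in GFAP-IL6 1, and Abcc9, lowest in WT 2, were exceptions. WT 3 also had the smallest total and stood apart in markers of choroid plexus epithelium, which summed to 4076 CPM in it and to between 81.2 and 754 CPM in the other mice, mostly Ttr. None of the 4 choroid plexus markers differed between genotypes in edgeR or DESeq2, and 1, Kl, passed unadjusted. The part of this tissue in the low mural values of WT 3 was not tested.

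Markers of meningeal and perivascular fibroblasts placed the mice in the same order as Acta2. Their summed level, led by Dcn, was 79.3 CPM in WT 2, 76.2 in GFAP-IL6 3, 55.9 in GFAP-IL6 2, 52.9 in WT 1, 51.0 in GFAP-IL6 1 and 46.3 in WT 3. Across the 6 mice the correlation of log2 levels was 0.90 for Pearson's r (exact permutation p = 0.00139) and 1 for Spearman's rho (exact permutation p = 0.00278), and r was 0.95 without the 2 mice farthest from the median of the fibroblast level. It was picked from 90 relations, of 9 genes with 10 marker lists, and its adjusted p values were 0.125 and 0.25, so none of the 90 passed. A relation of similar size was seen with neutrophil and lymphocyte markers, which summed to 0.525 to 4.87 CPM: Acta2 had r = 0.95 (exact permutation p = 0.00694, adjusted p = 0.188), rho = 0.94 (exact permutation p = 0.0167, adjusted p = 0.429) and r = 0.94 without the 2 farthest mice. None of the 8 fibroblast markers was called between genotypes by edgeR or DESeq2, and none passed unadjusted. The part of the amount of pial tissue in the spread of Acta2 was not tested. Between the genes themselves the highest Pearson's r of 36 pairs was that of Acta2 with Myl9 (r = 0.95, exact permutation p = 0.00972, adjusted p = 0.34; rho = 0.89, exact permutation p = 0.0333, adjusted p = 0.4), with r = 0.82 after leaving out the 2 mice farthest from the median of Myl9. The highest rho was that of Vtn with Myl9 (0.94, exact permutation p = 0.0167, adjusted p = 0.4), whose r was 0.73 (exact permutation p = 0.133, adjusted p = 0.414) and 0.87 without the 2 farthest mice.

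**Figure D4:**
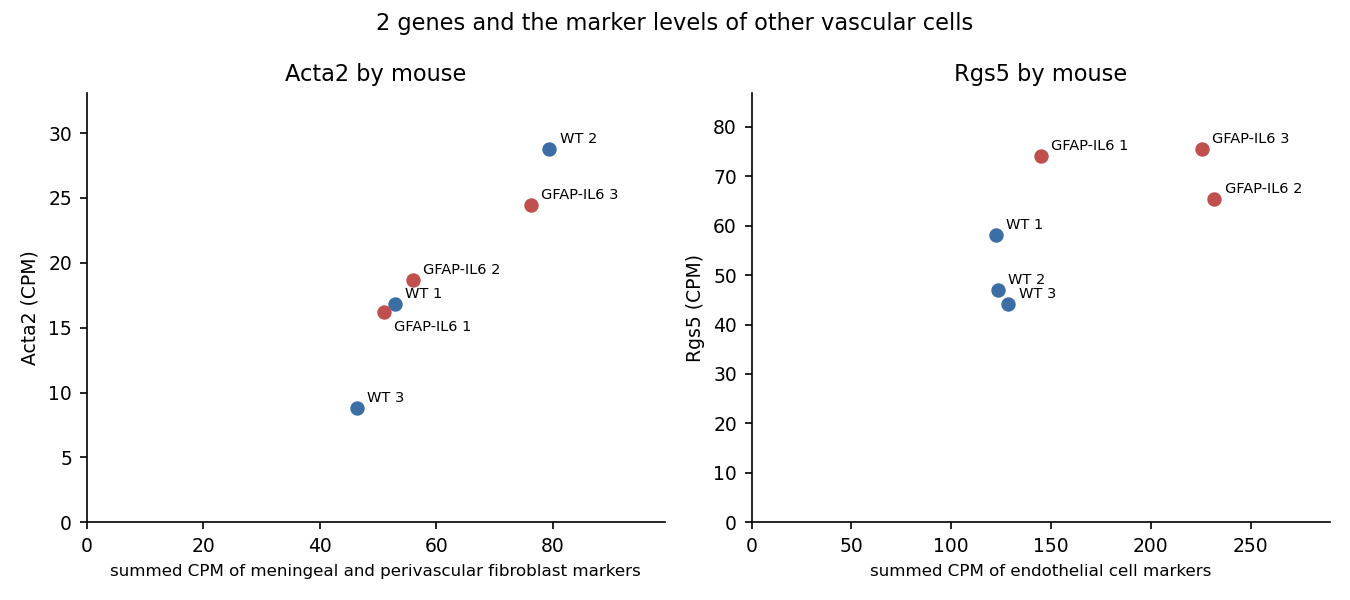
Left, Acta2 against the summed CPM of 8 fibroblast markers, and right, Rgs5 against the summed CPM of 7 endothelial markers, 1 point per mouse (WT blue, GFAP-IL6 red), all axes in CPM. Acta2 runs from 8.79 CPM at 46.3 CPM of fibroblast markers to 28.7 CPM at 79.3 CPM. In the Rgs5 plot the GFAP-IL6 mice lie to the right of and above the WT mice. Within WT the order of Rgs5 is the reverse of that of the markers. GFAP-IL6 2, highest in the markers, has the lowest Rgs5 of the GFAP-IL6 mice.

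Of 7 endothelial markers, 2 passed the test in edgeR, both higher in GFAP-IL6 mice like Rgs5. The sum of the 7 was 122 to 129 CPM in WT and 145 to 232 CPM in GFAP-IL6 mice, mostly Ly6c1, all 7 had positive log2 fold changes with a median of 0.70, and the 2 called were Flt1 (0.70, adjusted p = 0.00637) and Ly6c1 (0.82, adjusted p = 0.0142). DESeq2 called Flt1 alone of the 7, and Cldn5 (adjusted p = 0.11), Cdh5 (0.30), Slco1a4 (0.56), Abcb1a (0.65) and Pecam1 (0.76) did not pass in edgeR. Relative to Cldn5, the main claudin of the endothelial tight junction, Rgs5 differed between genotypes by -0.19 on the log2 scale (exact permutation test, two-sided, p = 0.6). A change of Rgs5 apart from Cldn5 was therefore not shown, and the part of vessel content in the change of Rgs5 was not tested. Across the 6 mice, log2 Rgs5 and the log2 endothelial sum had Pearson's r = 0.67 (exact permutation p = 0.161, adjusted p = 0.439). Spearman's rho was 0.60 (exact permutation p = 0.242, adjusted p = 0.558). Within WT the order of Rgs5 was the reverse of that of the endothelial sum. Of the microglial markers 6 of 7 rose, P2ry12 excepted, and their sum was 369 to 417 CPM in WT and 602 to 774 CPM in GFAP-IL6 mice.

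Wider lists of contractile and other pericyte genes held no call. Among all genes tested, edgeR called 1.8%, and 8.75% had an unadjusted p under 0.05. Of 13 tested contractile genes none was called by edgeR or DESeq2, and 3 passed unadjusted, Cald1, Pln and Mustn1; 7 were positive, with a median log2 fold change of 0.09. The most abundant, Tpm1, encoding a tropomyosin, changed by -0.06, and the one with the smallest p, Cald1, encoding caldesmon, by 0.35 (adjusted p = 0.247), with 36.5 to 50.2 CPM in WT and 52.6 to 63.3 CPM in GFAP-IL6 mice. Of 14 other pericyte genes none was called by either tool or passed unadjusted, and the median was 0.07. Higd1b, a mitochondrial protein gene of pericytes and the most abundant of them, had a log2 fold change of 0.00, and the smallest p belonged to Atp13a5 (-0.41, adjusted p = 0.818).

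Genes of signalling between endothelium and mural cells (ligands, receptors and the Notch targets Hey1, Hey2 and Heyl) included 20 tested genes, of which none was called by either tool and 4 passed unadjusted (Pdgfd, Heyl, Tgfbr2 and Edn1), with a median of 0.10. Pdgfb, the ligand of PDGFRB, was at 8.03 to 11.5 CPM in WT and 8.44 to 10.5 CPM in GFAP-IL6 mice. The most abundant was S1pr1, a receptor of sphingosine 1-phosphate, at -0.07, and the smallest p was that of Pdgfd, a second ligand of PDGFRB, at 0.88 (adjusted p = 0.309). Of 6 mural transcription factors none was called by either tool and 1 passed unadjusted. The median was 0.19, with 0.01 for Mkl2, the most abundant cofactor of serum response factor here, and 0.87 for Foxf2, a forkhead factor of brain pericytes (adjusted p = 0.522). Abcc8, the sulfonylurea receptor of neuronal channels and the only other channel subunit tested, changed by -0.02 and was called by neither tool.

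Among 5 receptors and partners of vitronectin, Itgb5 alone was called, by edgeR and by DESeq2. It encodes the beta 5 chain that pairs with integrin alpha v to bind vitronectin, and many cell types carry it. Its level was 7.75, 7.97 and 7.999 CPM in WT and 13.7, 13.8 and 12.3 CPM in GFAP-IL6 mice, a log2 fold change of 0.74 (SE 0.14, adjusted p = 0.00897). The call was lost without GFAP-IL6 2 (adjusted p = 0.0636) and after thinning all mice to equal totals (adjusted p = 0.0504). Itgav, its partner chain, changed by -0.08 (adjusted p = 0.913).

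**Figure D5:**
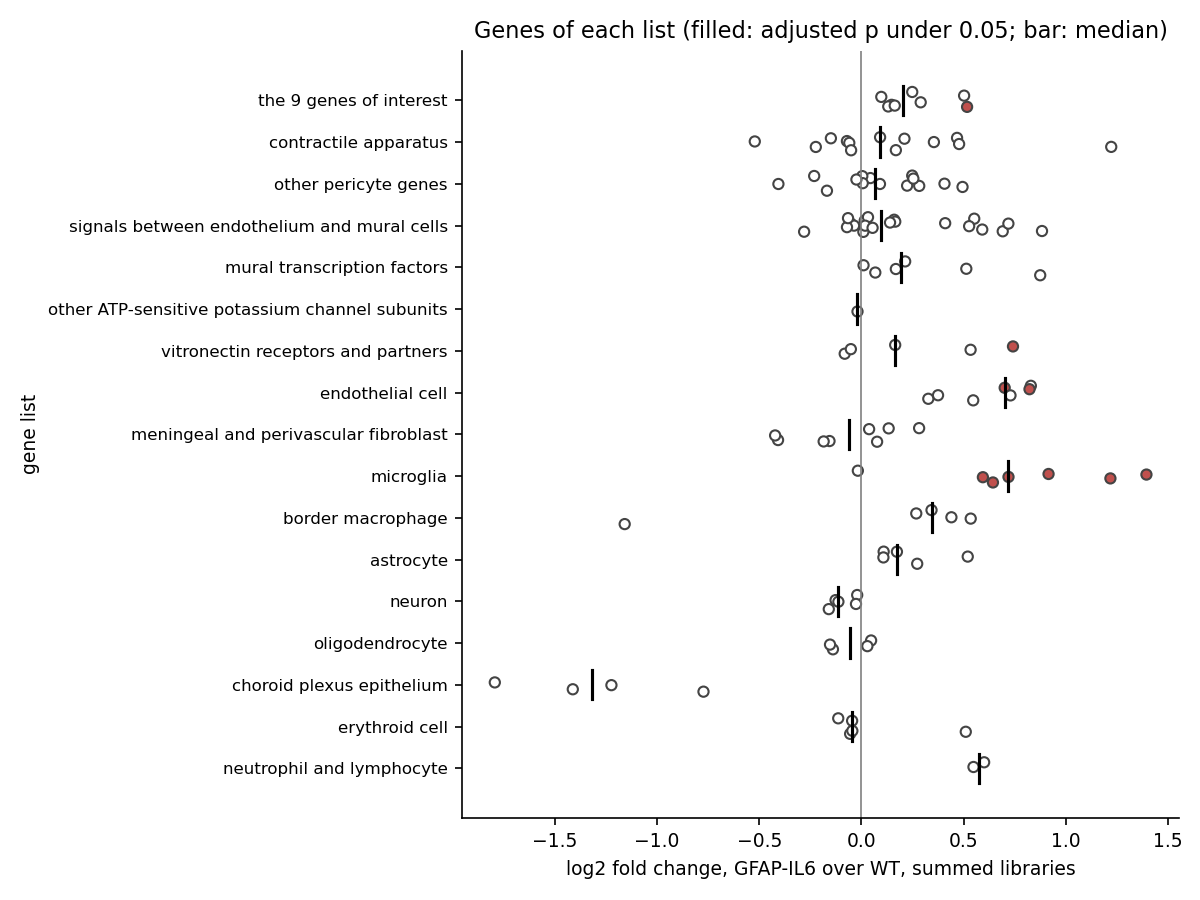
Log2 fold change of GFAP-IL6 over WT in the summed libraries (horizontal axis) of each tested gene in the 9 genes of interest, 6 lists of related genes and 10 lists of cell type markers; filled points passed an adjusted p of 0.05 and bars are medians. Filled points lie among the microglial (6 of 7) and endothelial (2 of 7) markers, with 1 each, Rgs5 and Itgb5, among the genes of interest and the vitronectin partners.

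The remaining marker lists gave no call in edgeR. Astrocyte markers summed to 2814 to 2907 CPM in WT and 3103 to 3326 CPM in GFAP-IL6 mice, with Aldoc the most abundant, and DESeq2 called 1 of 5, Aqp4, while 2 passed unadjusted in edgeR, Aqp4 and Gja1. Neuronal markers, led by Snap25, summed to 5395 to 6071 and 5031 to 5710 CPM, and oligodendrocyte markers, led by Mbp, to 5210 to 7992 and 5113 to 7677 CPM, with none unadjusted and none by DESeq2 in either list. Border macrophage markers, led by Ms4a7, stood at 4.33 to 5.72 and 4.95 to 7.13 CPM. Of the 5 tested, 4 had positive log2 fold changes. The 1 that passed unadjusted, Lyve1, was lower in GFAP-IL6 mice (-1.16). Erythroid genes, led by Hbb-bs, stood at 751 to 1034 and 703 to 958 CPM. Of these 5, only Alas2 was positive (0.51), and it alone passed unadjusted. DESeq2 called none in either list. Neutrophil and lymphocyte markers, led by S100a8, were low, at 0.525 to 3.27 and 1.16 to 4.87 CPM, with none unadjusted and none by DESeq2 of the 2 tested.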

How the data were processed

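Per their methods and the submitters' processing notes, the authors removed polyA stretches, mapped the single-end reads with STAR 2.4 on mm10, and used featureCounts to assign unique alignments to GENCODE vM6 genes. The build list of the notes names hg19 instead. The values deposited are unnormalized counts of 33000 genes in each library. All samples were assigned by their labels.

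Counts were summed per mouse, and all genes passing filterByExpr were fitted by edgeR 4.0.16 in R 4.3.3 (TMM, quasi-likelihood test, Benjamini-Hochberg adjustment, called at an adjusted p under 0.05). CPM used TMM effective library sizes. Single values of 3 against 3 mice were compared by exact permutation tests. The 95% intervals come from the quasi-likelihood fit. Alternatives used DESeq2 1.42.0 and limma 3.58.1. Marker relations across mice were added after the data were seen. Positions came from GENCODE vM21 on the same build. Scripts were tested on simulated data.

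The 9 genes and all lists were chosen with earlier results of these data known. Named were all 9 genes, and from each list those called, at most 5, or else the most abundant gene and that with the smallest p. Of the marker lists, sums, counts of calls and the most abundant gene were given, except for a name that is not reported here. Pdgfb, Itgav, Cldn5, P2ry12, Pcsk7 and genes that make up a count of 5 or fewer were named outside that rule, after their values were seen. Nothing in the sources says whether the mice shared litters, so p-values measure only the spread between these mice. In comparisons of amount and set the main fit did not pair the libraries of 1 mouse, and an alternative fit took the mouse as a block. The tests of a genotype effect that differs by amount or set took the mouse as a block.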

Additional observations from a re-analysis of the deposited data

How the results depend on the processing

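The number of mural genes called fell from 1 to 0 under the stricter rule of an adjusted p under 0.1 and a log2 fold change above 1.5, which no log2 fold change of 0.52 can meet. Leaving out 1 mouse at a time gave 0 to 1 calls in the summed libraries, 0 to 1 in 2 ng set A and 0 to 1 in 1 ng set B. Rgs5 was called in 1 ng set A with library totals without TMM (1 gene) and without the filter on low counts (1 gene), and in 2 ng set B without the filter (1 gene). With the mouse as replicate block, 2 genes were called between amounts and 2 between sets; without the block no interaction was called either. Labels number the WT and GFAP-IL6 mice alike. Deviations from the group means correlated at -0.049, -0.0322 and -0.0335 for mice of the same number, and at -0.0803 to 0.127 for other pairings. These values cannot decide whether mice of the same number shared anything beyond it. Blocking by the number gave 215 calls among all genes in place of 263, and 1 mural gene, as without the block. It gave 106 in place of 125, 130 of 136, 83 of 132 and 97 of 140 calls in 2 ng A, 1 ng A, 2 ng B and 1 ng B.

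Uncalled log2 fold changes crossed 0. In 2 ng set A Kcnj8 was -0.0079 and Acta2 0.022 by DESeq2, and with the replicate block Kcnj8 was -0.093 and Vtn -0.0082. Leaving out single mice gave -0.17 to 0.59 for Acta2 and -0.17 to 0.45 for Tagln summed; in 2 ng set A -0.20 to 0.17 for Kcnj8, -0.073 to 0.094 for Vtn, -0.30 to 0.60 for Acta2 and -0.086 to 0.36 for Tagln; in 1 ng set A -0.025 to 0.35 for Pdgfrb, -0.13 to 0.61 for Acta2, -0.27 to 0.40 for Tagln and -0.042 to 0.25 for Vtn; in 2 ng set B -0.18 to 0.39 for Acta2; and in 1 ng set B -0.15 to 0.66 for Acta2, -0.077 to 0.23 for Kcnj8, -0.55 to 0.40 for Tagln and -0.071 to 0.26 for Myl9. Without crossing 0, the summed values ran from 0.13 to 0.46 for Pdgfrb, 0.034 to 0.29 for Kcnj8, 0.075 to 0.46 for Myl9 and 0.085 to 0.21 for Vtn. Flt1 lost its call without WT 2 (adjusted p = 0.0595) or GFAP-IL6 2 (0.0565). Ly6c1 lost it in DESeq2 (0.147) and without WT 1 (0.065), WT 2 (0.0595), GFAP-IL6 2 (0.0961) or GFAP-IL6 3 (0.0852). The cause of these changes was not tested. Depth limits Abcc9 and Anpep, with 7 and 1 counts in the mouse of the smallest total.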
